A study of Mus musculus with 3 samples.

Results

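The AP-1 transcription factor family was represented here by 9 genes: Fos, Fosb, Fosl1, Fosl2, Jun, Junb, Jund, Atf3 and Batf. They were taken as all probe sets annotated to a single gene symbol among these 9 names, which gave 13 probe sets out of 34945 with 1 gene symbol, or 9 genes out of 18193. Messenger RNA had been measured on 3'-labelled GeneChip arrays, with 1 array for each of 3 mouse cell populations, all of C57BL/6 strain and none of them treated. The B6N-22 line of embryonic stem (ES) cells had been grown with leukemia inhibitory factor and serum on embryonic fibroblasts inactivated with mitomycin C. The B cells (B220) and the T cells (CD4) came from spleens of mice aged 6 to 8 weeks, were purified by magnetic sorting, to more than 98% purity by the labels, and gave RNA immediately after harvest. The sources used here do not say whether spleens of several mice were pooled or whether feeder cells were removed from the ES cells. Since each population had a single array, no replicate error could be had, no test was run, and every difference below describes these arrays.

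AP-1 is a dimer of basic leucine zipper (bZIP) proteins. Jun proteins pair with each other or with Fos proteins, whereas Fos proteins need a partner, and the dimers bind a short palindromic DNA element called the TRE. Fos, Jun and Junb are classic immediate early genes, which are transcribed within minutes of a stimulus from factors already present in the cell, and their mRNAs are short-lived. In lymphocytes AP-1 acts together with NFAT proteins after antigen receptor signalling, and Batf pairs with Jun proteins and binds composite elements with the factors IRF4 and IRF8.

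The deposited values were signals on a linear scale. The detection level was a signal of 95.0, which is the 50th percentile over the 3 arrays, and lower signals were set to it ahead of the log2 step, so that folds against an array below it are lower bounds, marked "at least". A gene with several probe sets was represented by the one with the highest mean signal. A comparison measured a gene if either array exceeded this level, and counted it at 4-fold or more. As a yardstick, the log2 differences given by the 2 brightest probe sets of each gene were set against each other, which reflects probes and not cultures or animals. The SD of their disagreement was 1.09 for T cells against ES cells, 1.08 for B cells against ES cells and 0.56 for T cells against B cells.

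The marker lists matched the labels of the arrays, with cells of other kinds also represented. All 8 ES cell markers were above the detection level on the ES cell array and 0 on the lymphocyte arrays, all 7 measurable B cell markers were above it in B cells, and all 8 T cell markers in T cells. On the T cell array 6 of the 7 B cell markers also exceeded it, with a summed signal of 5098 against 105741 in B cells, and on the B cell array 6 of the 8 T cell markers did, with 1391 against 74109 in T cells. Of 12 macrophage markers, 9 exceeded the detection level on the ES cell array and all 12 in both lymphocyte populations, with summed signals of 4409 for ES, 28183 for B and 68061 for T cells. Of 12 fibroblast markers, all 12 exceeded it on the ES cell array, 3 on the B cell array and 2 on the T cell array, with summed signals of 74234, 731 and 7697 in that order. Most of the last sum was Thy1, which T cells also express, at 7185. The 7 neutrophil markers summed to 281, 7020 and 13963 in the same order, with S100a8 and S100a9 as the main contributors in lymphocytes. On such bulk samples, fewer cells of a type and less RNA per cell cannot be told apart.

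Most of the family was higher in both lymphocyte populations than in ES cells. In T cells 7 of the 9 members were at least 4-fold higher than in ES cells and 0 were lower, where 10.8% of 12325 measured genes were higher by this rule and 10.2% lower. In B cells 6 of the 9 were at least 4-fold higher and 1 was lower, where 9.85% of 12463 measured genes were higher and 10.3% lower. The median log2 difference of the 9 members was 2.43 in T cells and 3.29 in B cells, against -0.11 and -0.07 for all measured genes. Both medians include members entered at the detection level. The same ES cell array served in both comparisons, so the counts for T cells and B cells are not independent of each other. The ES cells came from culture, and both lymphocyte populations came from spleens through magnetic sorting. Cell type and handling therefore cannot be told apart in the differences from ES cells.

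**Figure D1:**
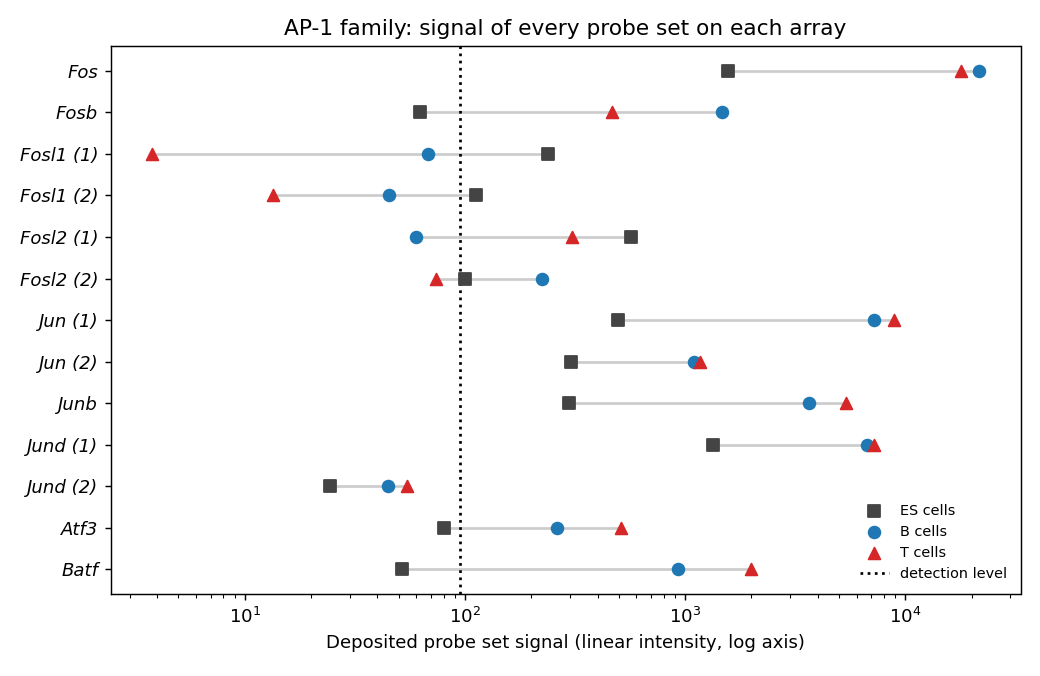
Deposited signal of the 13 probe sets of AP-1 genes on the ES cell (square), B cell (circle) and T cell (triangle) arrays, on a log axis, with the detection level of 95.0 as a dotted line. Where a gene has 2 probe sets, the one marked 1 represents it. Jun, Junb, Jund, Fos, Fosb, Atf3 and Batf lie to the right in lymphocytes, Fosl1 in ES cells, and the probe sets of Fosl2 order the arrays differently.

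Among the Fos genes, Fos itself had a signal of 1559.5 for ES, 21625 for B and 17943 for T cells. It was therefore above the detection level everywhere, had the highest signal of the members' probe sets on the ES cell array, and was 13.9-fold higher in B cells and 11.5-fold higher in T cells than in ES cells. On the log2 scale these differences were 3.79 and 3.52. Of all measured genes 3.27% were as far or farther up on the B cell array, and 3.95% on the T cell array. The order of the arrays was B cells, T cells, ES cells, and the gap of 1.21-fold between the lymphocytes was within the disagreement between probe sets.

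Fosb, a close relative of Fos that is also an immediate early gene, gave signals of 62.4 for ES, 1471 for B and 468 for T cells. It was below the detection level in ES cells and differed between the lymphocytes more than Fos did. B cells exceeded ES cells at least 15.5-fold in this gene, and T cells at least 4.92-fold. Its log2 difference between T cells and B cells was -1.65, a level 3.15-fold lower in T cells, and exceeded the probe set SD of that comparison.

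Fosl1 and Fosl2, which encode the Fos-related proteins Fra-1 and Fra-2, did not share this pattern. The Fosl1 probe set that represents the gene had a signal of 239 for ES, 67.8 for B and 3.8 for T cells, and its other probe set had 113, 45.2 and 13.5. Both exceeded the detection level on the ES cell array alone and had the same order of arrays. Fosl1 was at least 2.51-fold lower in both lymphocyte populations, or at least 1.19-fold by the other probe set, and was not counted as different. Its level was not measured in T cells against B cells, because both were below the detection level.

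Fosl2 was read in opposite ways by its 2 probe sets. The brighter gave 567 for ES, 60.2 for B and 307 for T cells, and the dimmer gave 99.9, 223 and 74.1. By the former Fosl2 was highest in ES cells and at least 5.97-fold lower in B cells, which made it the only member counted as lower. By the latter it was highest in B cells, 2.24-fold above ES cells. In T cells it was 1.85-fold lower than in ES cells by the brighter probe set and at least 1.05-fold lower by the dimmer. Which of them reads the Fosl2 transcripts of these cells was not tested, and no direction is given for Fosl2 between B cells and ES cells.

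The Jun genes were all higher in lymphocytes. Jun, the founding member of the family, had signals of 494 for ES, 7236 for B and 8921 for T cells, and its other probe set had 304, 1102 and 1168. Both probe sets put ES cells lowest, with B cells and T cells close together. The fold above ES cells depended on the probe set, at 14.6-fold in B cells and 18.0-fold in T cells by the brighter and 3.62-fold and 3.84-fold by the dimmer, so that the dimmer fell short of 4-fold in both. The lymphocytes differed from each other by 1.23-fold and 1.06-fold.

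Junb, which binds the same sites as Jun and is often a weaker activator, gave 297 for ES, 3633 for B and 5393 for T cells. It was 12.2-fold higher in B cells and 18.2-fold higher in T cells than in ES cells, with log2 differences of 3.61 and 4.18. Its gap between T cells and B cells, 0.57 on the log2 scale, was about the size of the probe set SD. Jund, which in many cells is expressed without a stimulus, gave 1338 for ES, 6726 for B and 7191 for T cells. It was 5.03-fold and 5.37-fold higher in B cells and T cells, the smallest difference among the Jun genes by the probe sets that represent them, though above that of the dimmer Jun probe set. Its other probe set was below the detection level on all 3 arrays, at 24.3 to 54.4, and says nothing on its level.

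Atf3 and Batf were both below the detection level in ES cells. Atf3, a stress-induced bZIP factor that can pair with Jun proteins, gave 80.2 for ES, 261 for B and 514 for T cells. T cells exceeded ES cells at least 5.41-fold, and B cells at least 2.75-fold, which was not counted. Batf, which has a bZIP domain but lacks the activation domain of Fos, gave 52.0 for ES, 929 for B and 2000.2 for T cells. The difference from ES cells was at least 9.78-fold for B cells and at least 21.1-fold for T cells, the latter being the greatest of the 9 members at this detection level. With detection at the 65th percentile it was at least 8.18-fold, below Junb and Jun. At the level used, 2.22% of measured genes were as far or farther up in T cells.

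**Figure D2:**
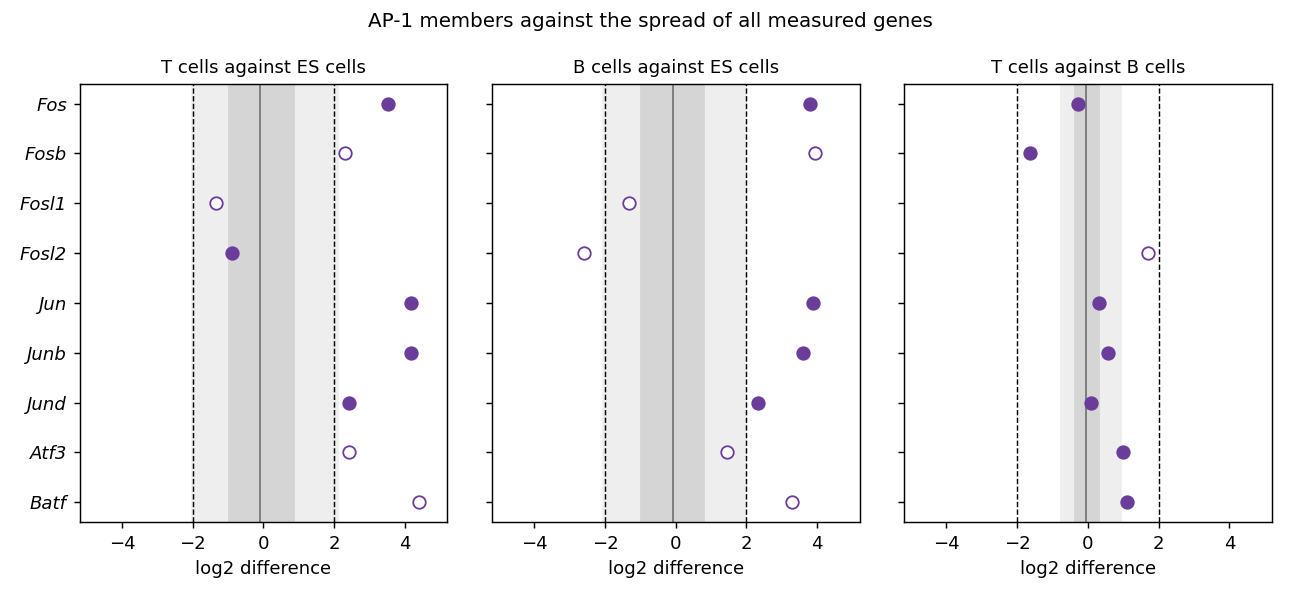
Log2 differences of the 9 AP-1 members in the 3 comparisons (purple circles; open where 1 array was below the detection level, so that the value is a bound). Dark and light grey bands span the 25th to 75th and the 10th to 90th percentile of all measured genes, the grey line is their median, and dashed lines mark 4-fold. The 7 members counted for T cells and the 7 counted for B cells against ES cells lie beyond the light band, and no member passes 4-fold between T cells and B cells.

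Between T cells and B cells 3 of 8 measured members differed by 2-fold or more. Of the 8, 0 reached 4-fold in either direction, where 2.49% of 11194 measured genes were higher and 1.85% lower, so that a count of 0 says nothing particular about the family. At 2-fold, 2 members were higher in T cells and 1 lower, where 8.89% of measured genes were higher and 6.32% lower. The member lower in T cells was Fosb. The higher members were Batf, at 2.15-fold, and Fosl2, at least 3.23-fold by its brighter probe set and at least 2.35-fold the other way by its dimmer. Atf3 was 1.97-fold higher in T cells, while Jun, Junb, Jund and Fos lay within 1.48-fold.

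Macrophage, dendritic cell, NK and cytotoxic cell, neutrophil and erythroid markers had medians in the direction of Atf3 and Batf in all 3 comparisons. The T cell markers did so too. Their median log2 differences were 6.54 in T cells and 0.81 in B cells against ES cells, and 5.68 in T cells against B cells. The plasma cell and B cell markers did so against ES cells only, and the fibroblast markers in no comparison. For the macrophage markers the median log2 difference was 4.05 in T cells against ES cells, 2.67 in B cells against ES cells and 1.29 in T cells against B cells. The corresponding values were at least 2.43, at least 1.46 and 0.98 for Atf3, and at least 4.40, at least 3.29 and 1.11 for Batf. Of the 12 macrophage markers, 10 lay 4-fold or more above ES cells in T cells and 8 in B cells, beside 10.8% and 9.85% of measured genes. Between the lymphocytes 0 differed by 4-fold, where 2.49% of measured genes were higher in T cells and 1.85% lower. None of the 12 was at 0 on any array, and Lyz2 differed by -0.04 on the log2 scale in B cells against ES cells. In the same order of comparisons the medians were 3.13, 1.18 and 1.38 for the dendritic cell markers. They were 2.39, 1.21 and 0.92 for the NK and cytotoxic cell markers and 1.20, 1.28 and 0.16 for the neutrophil markers. The plasma cell markers had 1.08, 0.62 and -0.43, and the erythroid markers, few of them measured, 0.38, 0.25 and 0.26. Of the 6 dendritic cell markers with a probe set 0 were detected for ES, 5 for B and 5 for T cells, with summed signals of 236, 1135 and 4304. Of the 8 NK and cytotoxic cell markers 0, 8 and 7 were, with 208, 3168 and 5664. Among the other members, Fos and Fosb were lower in T cells than in B cells. Jun, Junb and Jund were higher in T cells, by 0.57 or less on the log2 scale. The part of RNA from cells of other kinds was not tested for any AP-1 member.

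The patterns of the members over the 3 arrays were compared by the Euclidean distance between their log2 signals, each centred on its own mean, with values below the detection level raised to it. Each gene entered by the probe set that represents it, so the distances of Jun and Fosl2 hold for their brighter probe sets only. For Jun the log2 differences of T cells and B cells from ES cells were 4.17 and 3.87 by that probe set and 1.94 and 1.86 by the dimmer. Of the 36 pairs of members, Jun and Junb were closest, at 0.22, followed by Junb with Batf at 0.38 and Fos with Jun at 0.50. Fosl2 and Jun were farthest apart, at 4.80, and Fosl1 lay 1.24 from Fosl2. Fosb was nearest to Fos, at 1.07, and Atf3 nearest to Jund, at 0.71. Distances of members below the detection level on an array (Fosb, Atf3, Batf, Fosl1 and Fosl2) hold at this level only, also in the search below. With detection at the 65th percentile, the log2 difference of Batf in T cells against ES cells was at least 3.03, beside 4.18 for Junb. A distance over 3 arrays says little about a pattern, since only the order and spacing of 3 values enter it.

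By the same measure, the genes most like each counted member were sought among 12776 genes. Fos lay closest to Taok3 and Ier5, both at 0.03, and Trim5, at 0.04, and Ier5 is itself an immediate early gene. Jun lay closest to Tespa1 and Senp7, both at 0.04, and Hivep2 at 0.05, and Junb to AI467606, Lats2 and Atxn7l1 at 0.06 to 0.12. Jund had Pcmtd2, Parp6 and Scaper within 0.04, and Fosb had Fam111a, Ptprj and Bmp2k within 0.12. Batf was nearest to Stat5b at 0.09, Arhgap9 and Asb2. Atf3 was nearest to B430306N03Rik, Vmn2r84 and Marco, the last of which encodes a scavenger receptor of macrophages. Marco had signals of 14.7 for ES, 259 for B and 530 for T cells. The brighter Fosl2 probe set was nearest to Rcn1, Spr and Ptgis.

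The promoters of Fos, Fosb, Jun and Junb are shown because these early genes were higher on both lymphocyte arrays and their control regions are textbook examples of signal-responsive promoters. The RefSeq table of GRCm38.p6 held windows of 300 bases, from 250 bases before to 50 after the annotated start, for 8 of the 9 members. Capitals mark matches, on either strand, to the CRE core TGACG, the TRE-like TGACATCA, the CCAAT box CCAAT or the TATA sequence TATAA. The windows lie at chr12:85473640-85473939 on the plus strand for Fos, chr7:19309996-19310295 on the minus strand for Fosb, chr4:95052173-95052472 on the minus strand for Jun and chr8:84978699-84978998 on the minus strand for Junb. Each is printed 5′ to 3′ along its gene.
Fos: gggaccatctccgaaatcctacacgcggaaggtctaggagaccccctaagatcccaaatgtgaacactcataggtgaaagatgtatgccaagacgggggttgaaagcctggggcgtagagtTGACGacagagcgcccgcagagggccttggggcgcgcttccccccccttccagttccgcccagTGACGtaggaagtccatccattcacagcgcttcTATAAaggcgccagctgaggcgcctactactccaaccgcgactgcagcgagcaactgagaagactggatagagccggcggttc
Fosb: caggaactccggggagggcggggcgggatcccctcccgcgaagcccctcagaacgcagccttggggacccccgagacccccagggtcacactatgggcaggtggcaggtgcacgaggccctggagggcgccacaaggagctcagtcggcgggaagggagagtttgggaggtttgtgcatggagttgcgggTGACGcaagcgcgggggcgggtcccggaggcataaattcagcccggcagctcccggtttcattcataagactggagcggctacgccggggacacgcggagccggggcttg
Jun: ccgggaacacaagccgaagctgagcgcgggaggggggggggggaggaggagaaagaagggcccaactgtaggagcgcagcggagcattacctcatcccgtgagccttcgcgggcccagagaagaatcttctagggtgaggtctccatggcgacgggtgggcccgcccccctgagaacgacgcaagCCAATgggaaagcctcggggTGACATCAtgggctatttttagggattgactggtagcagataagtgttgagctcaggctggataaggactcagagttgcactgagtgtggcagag
Junb: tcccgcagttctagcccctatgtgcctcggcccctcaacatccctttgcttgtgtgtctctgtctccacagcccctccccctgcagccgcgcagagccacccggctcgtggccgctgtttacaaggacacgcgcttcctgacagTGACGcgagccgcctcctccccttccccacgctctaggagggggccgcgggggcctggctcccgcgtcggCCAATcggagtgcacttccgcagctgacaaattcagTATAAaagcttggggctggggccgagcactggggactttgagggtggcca

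Matches were counted in all 32851 windows of the table as well. The CRE core TGACG, part of the element bound by CREB and ATF factors, was found in the windows of 5 of the 8 members (Fos, Fosb, Junb, Atf3 and Batf) and in 20.8% of all windows. Fos held it at positions -129 to -125 and -66 to -62 from the start, counted as 1, with a TATAA at -33 to -29. Fosb held it at -60 to -56 and Junb at -106 to -102. The Jun window held TGACATCA at -45 to -38, a sequence found in 3.62% of all windows. In human JUN an element of this kind is known to bind AP-1 itself. CCAAT was found in Jun, Junb and Atf3 and in 37.4% of all windows, and TATAA in Fos and Junb and in 24.9%. The Junb TATAA lay at 1 to 5, from the annotated start onward, and the Atf3 CCAAT at 6 to 10, after it.

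None of the 8 windows held the full CRE TGACGTCA, the TRE TGACTCA or a CArG box, the element bound by serum response factor, which were found in 1.79%, 5.2% and 1.63% of all windows. This says only that these letters were not in these windows. The member windows had between 46.7% and 68.3% G and C, against a median of 52.7% over all windows, and base composition alone changes how often such short sequences occur. Fosl2 and Jund held no match to any sequence searched.

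**Figure D3:**
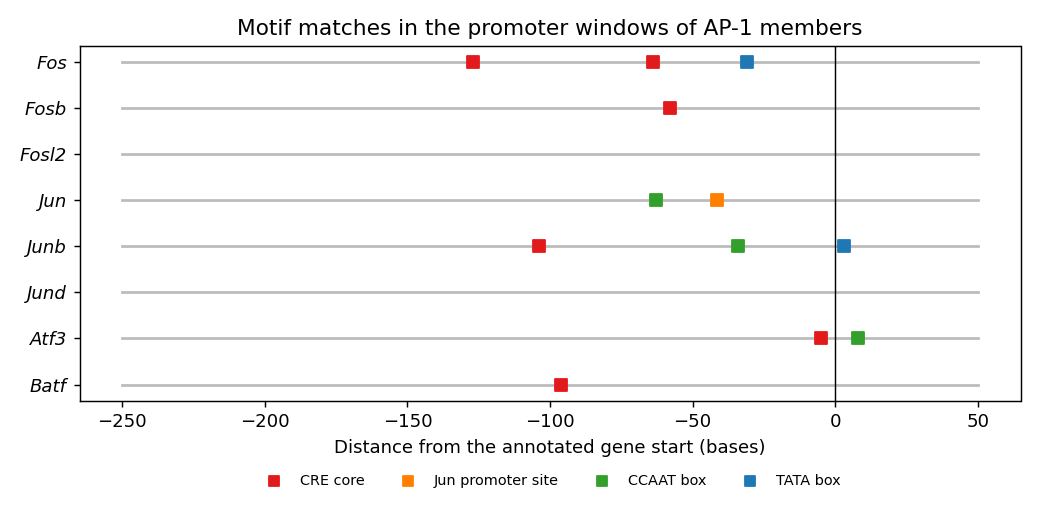
Positions of motif matches in the promoter windows of the 8 AP-1 members with an entry, as distance in bases from the annotated start, on either strand. Squares mark the CRE core, the TRE-like site of Jun, the CCAAT box and the TATA sequence. The Fos window holds 2 CRE cores, and the Fosl2 and Jund windows hold no match.

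The genes around AP-1 were then followed in 6 lists. Other bZIP genes, which include further partners of Fos and Jun proteins, were counted about as often as genes in general. Of 15 measured in T cells against ES cells, 2 passed 4-fold upward and 0 downward, beside 10.8% and 10.2% of all measured genes, and the median log2 difference was 0.59. Of 14 measured in B cells, 2 were higher and 1 lower (median 0.20), beside 9.85% and 10.3%. The higher genes were Maf, a regulator of T cell cytokine genes, at 35.2-fold in T cells and 4.62-fold in B cells, and Bach2, a repressor that competes at AP-1 sites, at 32.0-fold and 64.4-fold. Their probe sets ranged widely, down to log2 differences of 2.58 for Maf and 1.26 for Bach2 in T cells, and Maf reached only 0.08 by its lowest in B cells. Maff, a small Maf protein gene, was at least 4.06-fold lower in B cells.

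Maf also separated the lymphocytes. It had signals of 194 for ES, 898 for B and 6837 for T cells, and differed 7.62-fold between the lymphocytes. It was the 1 gene counted among 16 measured, beside 2.49% of all measured genes higher in T cells and 1.85% lower. Batf3, a paralog of Batf, gave 32.5, 101 and 341 in the same order and was 3.39-fold higher in T cells. Nfil3 was at least 2.61-fold higher there. Batf2, another paralog, was below the detection level on all 3 arrays, at 44.0 to 72.6.

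The kinases and factors that act on AP-1 genes and proteins had some higher members and no lower ones by the 4-fold rule. Of 14 measured in T cells against ES cells, 4 passed 4-fold upward and 0 downward (median 0.96), beside 10.8% and 10.2% of measured genes. Of 14 in B cells 3 did so upward and 0 downward (median 0.73), beside 9.85% and 10.3%. Elk4, a ternary complex factor that recruits serum response factor to the Fos promoter, had signals of 638 for ES, 6606 for B and 7281 for T cells and was 10.4-fold and 11.4-fold higher, although another of its probe sets gave -0.42 in T cells. Rps6ka3, the kinase RSK2, was 5.05-fold higher in B cells and 9.33-fold in T cells, with a second probe set at -0.21 and 0.16. Map3k1, a kinase upstream of JNK, was 8.39-fold higher in B cells by the probe set that represents it and farther up by the other. The JNK gene Mapk8 had a level of 1079 for ES, 831 for B and 846 for T cells, and Srf itself 620, 1340 and 1330. Between T cells and B cells 0 of 13 reached 4-fold in either direction, where 2.49% of all measured genes were higher and 1.85% lower.

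Of the lymphocyte partners of AP-1, Nfatc1, Irf4 and Irf8 were below the detection level in ES cells, whereas Nfatc2 was at 197 and Nfatc3 at 954. By the probe sets that represent them, all 5 NFAT and IRF genes were 4-fold or more above ES cells in T cells. In B cells 4 of 5 were, beside 10.8% of measured genes in T cells and 9.85% in B cells. The medians were 3.22 and 4.84. Nfatc1 exceeded its ES cell level at least 35.1-fold in T cells and at least 43.0-fold in B cells. Its lowest probe set gave log2 differences of 1.35 and 2.07. Against ES cells the lowest probe set gave -0.22 for Nfatc2 in T cells and 0.93 for Irf4 in B cells. The Batf partners Irf4 and Irf8 were higher in B cells than in T cells, whereas Batf was not. Irf4 had signals of 7.1 for ES, 2713 for B and 545 for T cells and was 4.98-fold lower in T cells than in B cells, while its other probe set gave a log2 difference of -0.93. Irf8 had 76.8, 8989 and 2308, a level 3.90-fold lower in T cells.

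Genes that limit AP-1, by destabilising its mRNAs, by degrading its proteins or by dephosphorylating the MAP kinases, were divided. Of 12, 6 were 4-fold or more above ES cells in T cells and 4 in B cells, beside 10.8% and 9.85% of measured genes. By the same rule 0 were lower, beside 10.2% and 10.3%, and the medians were 2.02 and 1.40. The gene of the MAP kinase phosphatase Dusp2 had signals of 79.9 for ES, 8284 for B and 6118 for T cells, at least 87.2-fold and 64.4-fold higher. Zfp36, whose product binds AU-rich elements such as those of Fos mRNA, had 393, 8858 and 7312 and was 22.6-fold and 18.6-fold higher. Its relative Zfp36l1 was 6.54-fold higher in B cells. The genes of the ubiquitin ligases that target Jun proteins differed less, with log2 differences of -0.86 and -0.17 for Fbxw7, 0.45 and 0.63 for Itch and -0.79 and -0.40 for Cop1, in T cells and B cells against ES cells.

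Genes with known AP-1 sites did not follow the AP-1 genes as a group. Of 16 measured in T cells against ES cells, 5 passed 4-fold upward and 3 downward (median -1.26), beside 10.8% and 10.2% of measured genes. Of 15 in B cells 2 did so upward and 4 downward (median -1.33), beside 9.85% and 10.3%. Cd69, an early activation antigen of lymphocytes, had signals of 27.2 for ES, 4639 for B and 4668 for T cells, at least 48.8-fold and 49.1-fold higher. The inhibitor gene Timp1 and the matrix protease gene Mmp3 were at least 68.2-fold and 29.8-fold lower in both populations, with signals of 6474 and 2834 in ES cells. The ES cell array, high in these genes, also had all 12 fibroblast markers above the detection level. Against ES cells, 11 of these markers were counted as lower in T cells and 12 in B cells. The exception was Thy1, which was counted as higher in T cells. The part of feeder cell RNA in Timp1, Mmp3, Fosl1 and Fosl2 was not tested. Between the lymphocytes, Ifng was 9.06-fold and Ccnd1 6.81-fold higher in T cells and Plaur 7.87-fold lower, and Il2, the classic NFAT and AP-1 target, was at 121 in T cells and below the detection level elsewhere.

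Other immediate early genes went both ways, more of them upward. Of 18 measured in T cells against ES cells, 9 passed 4-fold upward and 3 downward (median 2.16), beside 10.8% and 10.2% of measured genes. Of 17 in B cells 7 did so upward and 2 downward (median 1.62), beside 9.85% and 10.3%. Rgs1, a regulator of G protein signalling, exceeded its ES cell level at least 63.7-fold in T cells. The matricellular gene Ccn1 and Ier3 went the other way, with Ccn1 at least 43.8-fold lower in both populations and Ier3 19.3-fold lower in B cells. Over the 4 measured probe sets of Ccn1 the log2 differences ran from -5.45 to -1.91 in both populations. Ccn1 had 4158 for ES, 38.9 for B and 4.2 for T cells. Between T cells and B cells 1 of 17 was counted, beside 2.49% of all measured genes higher and 1.85% lower. It was the nuclear receptor gene Nr4a3, whose T cell signal exceeded that of B cells at least 8.11-fold. Nr4a2 was 3.99-fold higher in T cells, and its 4 measured probe sets gave log2 differences from 0.84 to 2.00. This list shares Dusp1 and Zfp36 with the list of genes that limit AP-1.

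**Figure D4:**
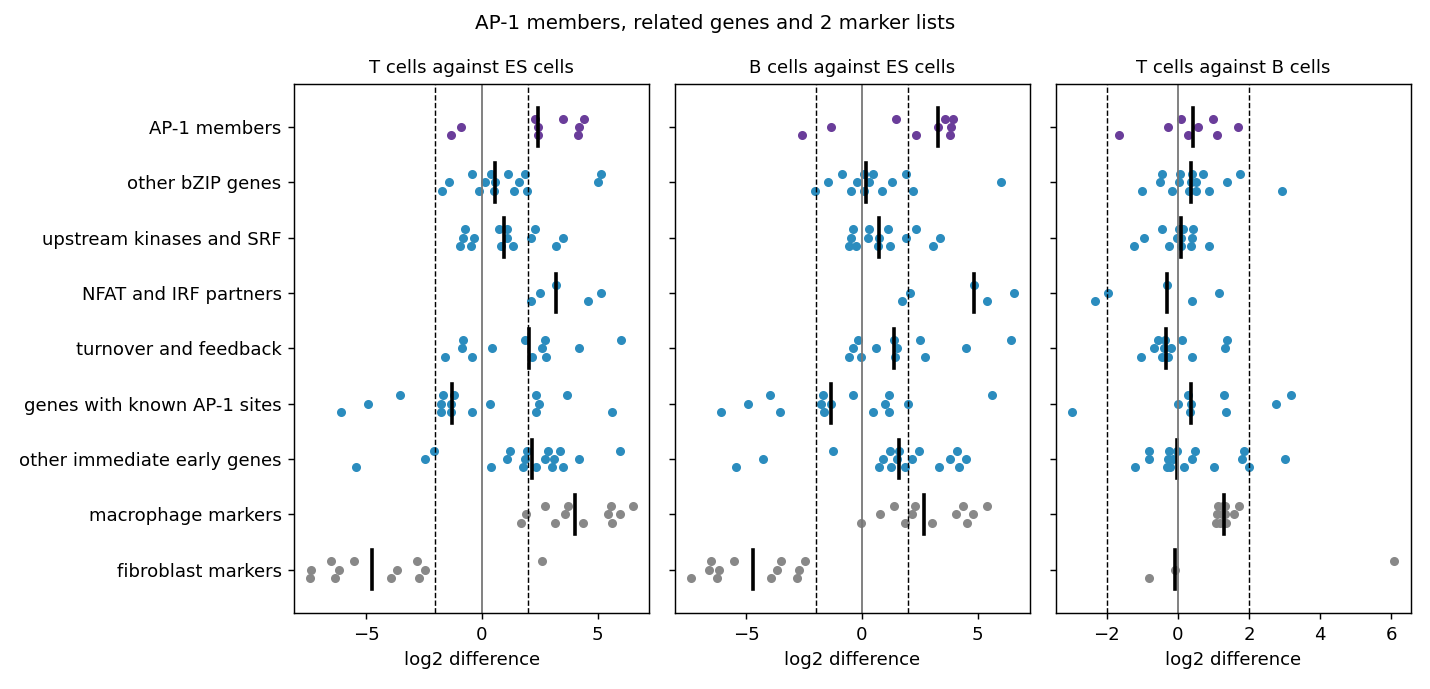
Log2 differences of the measured genes of the AP-1 family (purple), of 6 related lists (blue) and of macrophage and fibroblast markers (grey) in the 3 comparisons, with 1 point per gene, vertical bars at the medians and dashed lines at 4-fold. Points include bounds. AP-1 members and NFAT and IRF partners lie mostly to the right against ES cells, and genes with known AP-1 sites lie on both sides.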

How the data were processed

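The authors deposited a linear intensity per probe set for 3 arrays (1 each of ES cells, B cells and T cells). The submitters' processing notes list Affymetrix Expression Console; version, algorithm and background step: not given in the sources used here. With 2% trimmed from each end, the array means of 497.3, 497.8 and 497.7 are as for arrays scaled to a common mean, so a general difference in mRNA per cell cannot be seen. Probe sets were named through GEO's array annotation, with symbols checked by Entrez ID in a RefSeq table of GRCm38.p6 (34741 of 34945 found, 0 changed); 932 probe sets with several genes and 9160 with none were left out. Log2 differences, counts and distances were computed with Python 3.11.15, pandas 2.3.3 and numpy 2.4.6. The calling script was tested on simulated data in which only bright genes were changed. Its calls of changes near the detection level were not tested there.

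The members, the 6 related lists and the marker lists were chosen with earlier results of these data known. Of 181 list entries, 12 had no probe set of their own and are not analysed here. Genes named were all members, up to 3 genes of each related list per comparison with the greatest difference, and the 3 genes nearest in pattern to each counted member. Others (Batf2, Mapk8, Srf, Fbxw7, Itch, Cop1, Il2, Dusp1 and the further markers) were chosen after their values were seen. Precision is limited by the number of arrays. The alternatives were 10 other settings of detection level, scaling, floor, probe set choice and fold.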

Additional observations from a re-analysis of the deposited data

How the results depend on the processing

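Of 60 recomputed counts of members, 47 stayed within 1.5 times the reported count, including counts of 0 that stayed 0. Of 216 recomputed member differences 193 moved by less than the probe set SD and 23 by more, and 0 called values changed sign. Of the 23, 10 moved with detection at the 65th percentile. These totals include values that a setting could not change. Where probe sets disagreed in sign, the rule that every probe set must pass entered 0, so it could not show a change of sign. This was so for Fosl2 in B cells against ES cells, at -2.58 by its brighter probe set and 1.16 by its dimmer. No member has a probe set ending in _x_at or _s_at, so leaving those out kept all 27 differences. Members with 1 probe set could not move under the rules on several probe sets. The counts of higher members ranged from 4 (8-fold rule) to 7 in T cells and from 5 to 7 in B cells against ES cells, and Fos and Junb were counted under all 10 settings in both. Jun was lost where every probe set had to pass, at 3.84-fold and 3.62-fold. Jund was lost with the mean of all probe sets, at 2.32-fold and 2.24-fold, which includes its undetected one. In B cells it was also lost with scaling to the 75th percentile, at 3.95-fold, and in both populations at 8-fold. With detection set at the 65th percentile, Fosb and Atf3 fell to at least 1.91-fold and 2.10-fold in T cells, and Batf to at least 3.80-fold in B cells. The 1 member lower in B cells, Fosl2, became 0 with that level, with the mean of probe sets, where every probe set had to pass and at 8-fold, and 2 at 2-fold, with Fosl1. In T cells against ES cells the count of lower members was 1 in place of 0, Fosl1, with the level at the 35th percentile, with 16 added and no floor, and at 2-fold. In T cells against B cells Fosl2 made the higher count 1 with the 35th percentile or without a floor, and at 2-fold the counts were 2 higher and 1 lower. Scaling to the 75th percentile moved the median of all genes from -0.11 to -0.42 in T cells and from -0.07 to -0.37 in B cells, and the higher share of all genes counted from 51.5% to 38.6% and from 48.8% to 37.4%; it left 7 and 5 members higher. With quantile normalization these counts were 7 and 6. No paired analysis was possible because each group had 1 array, and for the same reason no replicate could be left out. Signals near the detection level, as those of Fosl1, Fosl2, Atf3 and, in ES cells, Fosb and Batf, limit what these arrays show.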

Other observations

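Fos and Batf lie close together on chromosome 12 in the RefSeq table, with the bZIP gene Jdp2 as the only protein-coding gene between them. Jdp2, which encodes a partner of Jun proteins that represses AP-1 sites, had signals of 238 for ES, 170.0 for B and 316 for T cells. Its log2 differences were 0.41 in T cells and -0.48 in B cells against ES cells, below the probe set SD, beside 3.52 and 3.79 for Fos and at least 4.40 and 3.29 for Batf. In T cells against B cells its log2 difference was 0.89, above the probe set SD of 0.56. These 3 neighbours were looked at after their values were seen.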
